A study of Mus musculus with 40 samples.

Results

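The genes described here are a module of glycolysis and hypoxia response genes in J558LuM, a mouse plasmacytoma line, after transduction with PAX5 constructs. The module lists 39 genes by symbol, and a gene was measured where a probe set of the array carried exactly that symbol as its only gene. The probe set with the highest mean stood for a gene with several. By this rule 35 of the 39 members were measured, of 17097 genes in all, and Gpi1, Pgam1, Eno1 and P4ha1 had no such probe set. The measured members comprised 13 glycolytic enzymes, 6 regulators of glycolytic flux or lactate transporters, 5 genes of oxygen sensing and 11 targets of the hypoxia response.

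The series holds 40 arrays and concerns germline PAX5 changes in susceptibility to pre-B cell leukemia. Cells received wild-type PAX5 (PAX5-WT), the mutants PAX5-G183S or PAX5-G183V (7 arrays each), the mutants PAX5-P80R or PAX5-Δ2-6 (6 arrays each), or the empty vector MIR (7 arrays). All groups are the same transduced line, so the data speak of PAX5 added to a plasma cell tumour and not of a B cell precursor. Each array carries a transduction number of its own in the labels, and beyond that nothing says how far replicates were separate cultures, so p-values measure the spread between these arrays.

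Glycolysis breaks glucose down to pyruvate, which lactate dehydrogenase turns into lactate or mitochondria oxidise. When oxygen is low, prolyl hydroxylases no longer mark HIF-1α for destruction through VHL, and HIF-1α with its partner ARNT binds hypoxia response elements and raises glycolytic enzymes, lactate export and genes such as Vegfa and Bnip3. HIF-1α is controlled largely as a protein, so its mRNA is 1 layer of that control. PAX5 is the factor that holds B cell identity and is silenced when B cells become plasma cells.

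Promoter windows are shown for Mgarp, Hif1a, Pfkfb3 and Pdk3, the members called in the most comparisons between constructs among those whose window holds the core of a hypoxia response element. Pdk3, Hk1 and Egln1 were each called in 2 comparisons, and Pdk3 was taken for its larger change. The windows are RefSeq sequence of GRCm38.p6, 300 bases long, from 250 bases before to 50 after the annotated start, written 5′ to 3′ on the strand of the gene. Capitals mark the core, ACGTG or GCGTG on either strand (CACGT or CACGC when read on the other strand), and a CACGTG holds the core on both strands. Mgarp lies at chr3:51396498-51396797 (minus strand), Hif1a at chr12:73907617-73907916 (plus strand), Pfkfb3 at chr2:11502041-11502340 (minus strand, 1 of its 2 windows) and Pdk3 at chrX:93832101-93832400 (minus strand).
Mgarp: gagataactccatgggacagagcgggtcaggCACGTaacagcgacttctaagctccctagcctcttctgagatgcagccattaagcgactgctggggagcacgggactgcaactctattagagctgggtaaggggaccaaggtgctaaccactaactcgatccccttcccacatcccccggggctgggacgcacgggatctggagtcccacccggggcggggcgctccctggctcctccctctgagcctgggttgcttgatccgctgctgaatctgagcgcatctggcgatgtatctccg
Hif1a: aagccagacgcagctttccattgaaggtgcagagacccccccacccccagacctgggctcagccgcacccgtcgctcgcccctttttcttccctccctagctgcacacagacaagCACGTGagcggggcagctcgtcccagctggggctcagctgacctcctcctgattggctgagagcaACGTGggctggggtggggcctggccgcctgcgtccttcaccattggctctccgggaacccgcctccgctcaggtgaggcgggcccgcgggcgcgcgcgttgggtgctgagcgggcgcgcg
Pfkfb3: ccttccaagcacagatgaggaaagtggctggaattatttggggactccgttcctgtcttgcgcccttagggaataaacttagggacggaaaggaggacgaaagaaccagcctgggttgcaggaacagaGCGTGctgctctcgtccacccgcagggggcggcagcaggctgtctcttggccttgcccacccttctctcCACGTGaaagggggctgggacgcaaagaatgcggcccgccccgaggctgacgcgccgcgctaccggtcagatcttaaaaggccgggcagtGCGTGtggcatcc
Pdk3: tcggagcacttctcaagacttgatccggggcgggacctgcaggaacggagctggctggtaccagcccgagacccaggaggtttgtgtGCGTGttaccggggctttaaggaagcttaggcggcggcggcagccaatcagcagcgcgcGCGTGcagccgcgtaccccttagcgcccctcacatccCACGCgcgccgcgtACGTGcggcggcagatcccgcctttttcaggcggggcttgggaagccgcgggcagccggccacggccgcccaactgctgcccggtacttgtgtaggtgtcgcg

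The Mgarp window held 1 core match, the Hif1a window 3, the Pfkfb3 window 4 and the Pdk3 window 4, where a CACGTG in Hif1a and in Pfkfb3 counts on both strands. Of the 33 measured members with a window in the table, 30 held the core in at least 1 window, against 46.7% of all 27025 genes with a window. A gene with several windows has more room for a match. Counted by window, 76.6% of the 47 member windows held the core, against 43.8% of all 32851. The members were listed as genes of glycolysis and the hypoxia response, so these shares describe the list and are no result of the arrays. Vhl, which was called in 3 comparisons between constructs, had no match. A match describes letters in the window and no binding was measured.

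Values are log2 signals as the authors deposited them, and a change is a difference of log2 values, adjusted for array plate and RNA isolation batch, with its standard error (SE) from limma. A gene was called when its p, after Benjamini-Hochberg correction across the 17097 genes, was under 0.05. PAX5-P80R and PAX5-Δ2-6 arrays all lay on plate 2, whereas the other groups had 4 arrays on plate 1 and 3 on plate 2. Isolation batch 1 and batch 2 held 20 arrays each, with 3 or 4 of every group. Transduction numbers formed 4 runs, and PAX5-G183V, PAX5-P80R and PAX5-Δ2-6 (1 to 9 and 45 to 57) shared a run with PAX5-WT, PAX5-G183S and MIR (34 to 44 and 58 to 66) only through PAX5-G183S replicate 4, so a comparison of the first 3 constructs with MIR also runs between transduction runs. Array medians lay between 4.21 and 4.274. Plasma cell genes such as Xbp1 (mean 13.21) and Irf4 (10.88) were bright, whereas fibroblast markers had gene means of 3.32 to 3.91. Myeloid markers had gene means of 3.26 to 5.28, and Cd6 (6.78) and Cd3g (8.29) were the T cell markers above 5. No fibroblast or erythroid marker was called in a comparison with MIR. Cd6 was called with PAX5-G183S, PAX5-G183V and PAX5-P80R, Cd8a with PAX5-G183V and the myeloid Elane with PAX5-P80R. The Pax5 probe set changed by 0.30 with PAX5-WT, 0.17 with PAX5-G183S, 0.41 with PAX5-G183V, 0.61 with PAX5-P80R and 0.80 with PAX5-Δ2-6, of which limma called the PAX5-P80R change (adjusted p = 0.0248), and whether it reads the introduced construct is not known. Of the 35 members, 8 had means under the median of all genes (4.77).

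With PAX5-WT, 4 of the 35 members were called higher than in MIR and 0 lower, and the share of members called was 11.4%. Over all genes 6.43% were called, 3.59% higher and 2.84% lower. PAX5-G183S had 6 members higher and 1 lower (20% of members), beside 6.12% of all genes, 3.69% higher and 2.43% lower. PAX5-G183V had 6 higher and 2 lower (22.9%), beside 9.28% of all genes, 5.63% higher and 3.64% lower. PAX5-P80R had 2 higher and 2 lower (11.4%), beside 4.72% of all genes, 2.25% higher and 2.47% lower. With PAX5-Δ2-6 limma called 0 of 35 members, 4 had an unadjusted p under 0.05, and 0% of all genes were called in either direction.

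The median change of the members against MIR was 0.083 with PAX5-WT, 0.053 with PAX5-G183S, 0.015 with PAX5-G183V, 0.003 with PAX5-P80R and -0.019 with PAX5-Δ2-6, beside medians over all genes of 0.008, 0.003, 0.007, 0.003 and 0.002. The calls thus concerned few of the members. Under alternative fits the counts over all genes varied as well, as given below, so a changed member count does not speak of the members alone. The PAX5-G183S count was 4 without MIR replicate 1 and 4 without PAX5-G183S replicate 6. With the 4 transduction runs as a term in place of the isolation batches, limma called 2 members with PAX5-G183V and 2 with PAX5-P80R, in both Mgarp and Hif1a.

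**Figure D1:**
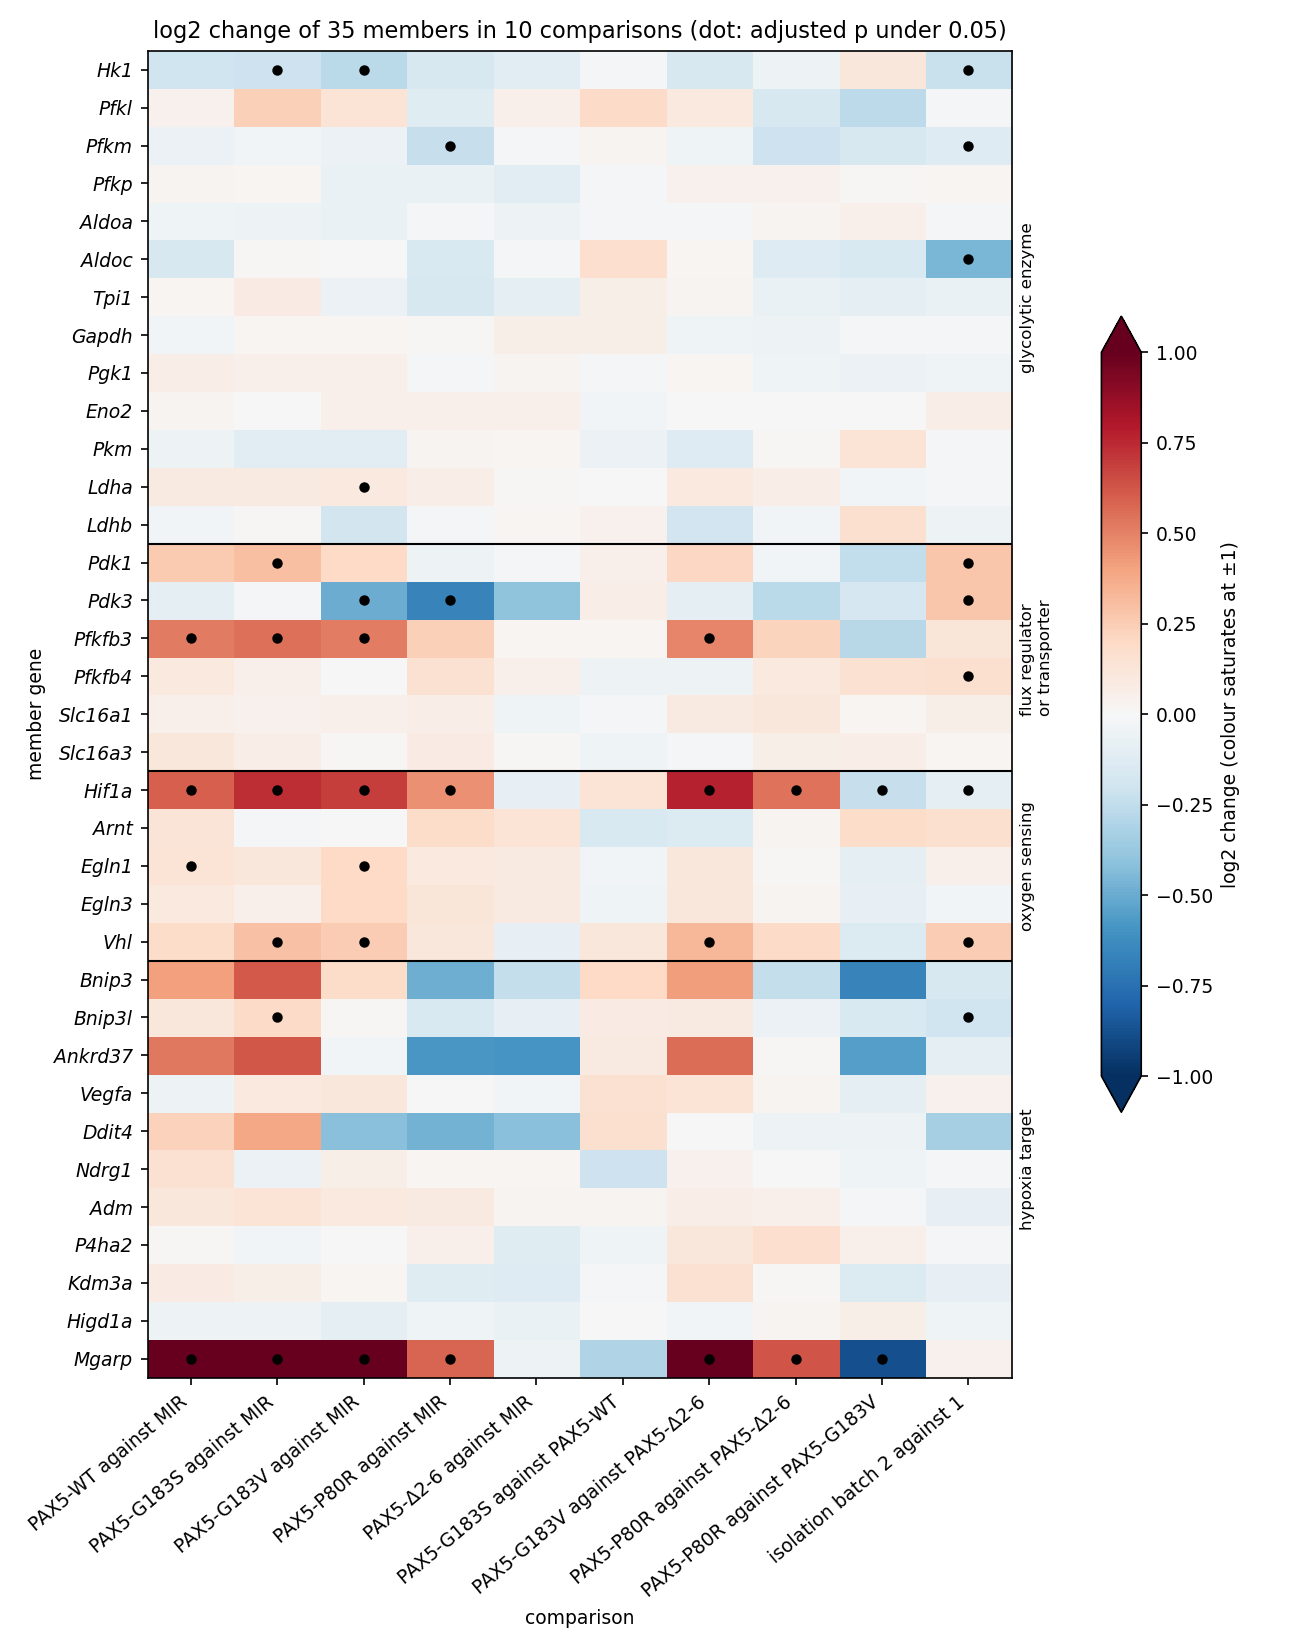
Log2 change of the 35 measured members (rows, by role) in 9 comparisons of constructs and in isolation batch 2 against 1 (columns), red higher and blue lower in the group named first, with a dot where the limma adjusted p was under 0.05. Mgarp and Hif1a carry dots in 7 comparisons of constructs each, and the columns PAX5-Δ2-6 against MIR and PAX5-G183S against PAX5-WT carry none.

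Mgarp and Hif1a were the members that changed most widely. Both rose with PAX5-WT, PAX5-G183S, PAX5-G183V and PAX5-P80R, and neither was called with PAX5-Δ2-6. In bulk RNA of a transduced culture, a change in fewer cells and a smaller change in each cell cannot be told apart. Mgarp, a mitochondrial protein that takes part in mitochondrial transport and is also known as HUMMR, had the largest change of the 35 members in each of the first 3 comparisons with MIR. Hif1a, the oxygen-regulated subunit of HIF-1, changed less but varied little between arrays.

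The Mgarp signal ran from 8.73 through a median of 8.97 to 9.26 in PAX5-WT arrays, against 6.70 through 7.11 to 7.24 in MIR arrays. PAX5-G183S arrays ran from 8.41 through 8.55 to 8.89, and PAX5-G183V arrays from 8.42 through 8.52 to 8.66. PAX5-P80R arrays ran from 7.24 through 7.62 to 7.78, and PAX5-Δ2-6 arrays from 6.75 through 6.83 to 7.23. The first 3 constructs thus lay above every MIR array with a wide gap, PAX5-P80R lay between them and MIR with its lowest array level with the highest MIR array, and PAX5-Δ2-6 lay within the MIR range. Against MIR, Mgarp rose by 1.89 ± 0.09 (SE) with PAX5-WT, a 3.70-fold rise (limma, adjusted p = 4.72e-18). The rise was 1.59 ± 0.09 with PAX5-G183S (adjusted p = 1.38e-15, limma), 1.46 ± 0.09 with PAX5-G183V (adjusted p = 1.63e-14) and 0.58 ± 0.10 with PAX5-P80R (adjusted p = 0.000302). With PAX5-Δ2-6 the Mgarp change was -0.05, with a 95% interval of -0.26 to 0.15 (limma, adjusted p = 0.943).

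Hif1a gave 9.69 to 9.94 (median 9.85) in PAX5-WT arrays, 9.84 to 10.12 (9.89) in PAX5-G183S arrays and 9.85 to 9.99 (9.87) in PAX5-G183V arrays, against 9.17 to 9.27 (9.23) in MIR arrays. PAX5-P80R arrays held 9.59 to 9.74 (median 9.65) and PAX5-Δ2-6 arrays 8.96 to 9.33 (9.12). Every array of the first 4 constructs was above every MIR array, PAX5-P80R lay below all PAX5-G183V arrays, and the PAX5-Δ2-6 range enclosed that of MIR. The Hif1a change against MIR was 0.60 ± 0.04 with PAX5-WT (limma, adjusted p = 2.95e-13), 0.74 ± 0.04 with PAX5-G183S (1.38e-15), 0.69 ± 0.04 with PAX5-G183V (1.13e-14) and 0.46 ± 0.05 with PAX5-P80R (1.29e-08). With PAX5-Δ2-6 it was -0.08 with an interval of -0.18 to 0.02 (limma, adjusted p = 0.713). A second Hif1a probe set was dim (mean 3.44) and was not called in any of these comparisons, whereas Mgarp had a single probe set. With the transduction runs as a term, Mgarp changed by 1.79 with PAX5-G183V and by 0.92 with PAX5-P80R (limma, adjusted p = 0.0489), and Hif1a by 0.72 and by 0.49 (0.0175 with PAX5-P80R), where the contrast with MIR rests on PAX5-G183S replicate 4 alone.

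**Figure D2:**
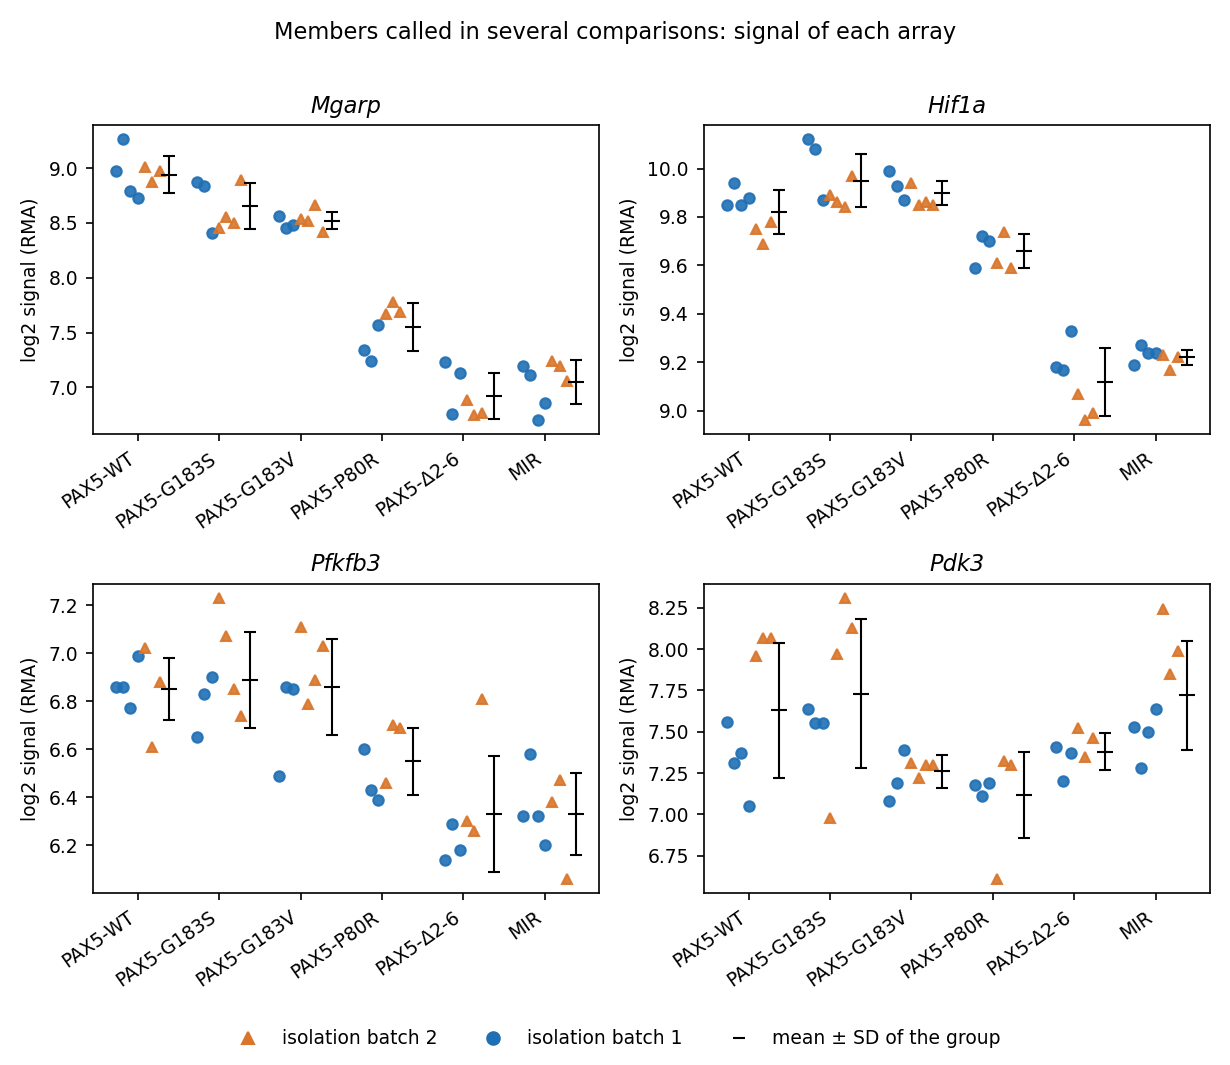
Log2 signal of Mgarp, Hif1a, Pfkfb3 and Pdk3 on each of the 40 arrays by construct, with circles for isolation batch 1, triangles for batch 2 and the mean ± SD of each group at its right. Mgarp and Hif1a are high in PAX5-WT, PAX5-G183S and PAX5-G183V, intermediate in PAX5-P80R and near MIR in PAX5-Δ2-6, and Pdk3 is spread by isolation batch in PAX5-WT, PAX5-G183S and MIR.

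The same order held among constructs handled in the same transduction runs, where a comparison does not cross runs. Mgarp was higher in PAX5-G183V than in PAX5-Δ2-6 by 1.51 ± 0.10 (limma, adjusted p = 1.72e-13) and higher in PAX5-P80R than in PAX5-Δ2-6 by 0.63 ± 0.10 (adjusted p = 5.68e-05). Hif1a was higher by 0.77 ± 0.05 (1.37e-14) and by 0.54 ± 0.05 (9.67e-11) in the same 2 comparisons. PAX5-P80R fell short of PAX5-G183V, with a Mgarp change of -0.88 ± 0.10 (limma, adjusted p = 1.92e-07) and a Hif1a change of -0.23 ± 0.05 (0.00222). The Hif1a call between PAX5-P80R and PAX5-G183V was lost under 6 of the alternatives, among them the fit of both groups alone (adjusted p = 0.137) and that of isolation batch 1 alone (0.24). PAX5-P80R against PAX5-Δ2-6 had these 2 members higher and 0 lower, beside 3.3% of all genes called, 1.95% higher and 1.36% lower. PAX5-P80R against PAX5-G183V had the same 2 lower and 0 higher, beside 4.26% of all genes, 1.64% higher and 2.62% lower. PAX5-G183V against PAX5-Δ2-6 had 4 members higher (Mgarp, Hif1a, Pfkfb3 and Vhl) and 0 lower, beside 4.98% of all genes, 3.35% higher and 1.64% lower. These comparisons share arrays, so their changes are not independent of each other.

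PAX5-G183S and PAX5-WT were not told apart for any member by limma, with 0 of 35 called, 5 at an unadjusted p under 0.05, and 0.076% of all genes called, 0.00585% higher and 0.0702% lower. The Mgarp change between them was -0.30, with a 95% interval of -0.49 to -0.12 (limma, adjusted p = 0.465), and the Hif1a change was 0.14, with an interval of 0.05 to 0.22 (adjusted p = 0.468). Both intervals exclude 0 but are for a single gene, whereas the adjusted p is corrected across all genes. The Pfkfb3 change was 0.02, with an interval of -0.16 to 0.21.

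Among the other genes of oxygen sensing, Egln1, the main HIF prolyl hydroxylase, rose by 0.14 ± 0.04 with PAX5-WT (limma, adjusted p = 0.0254) and by 0.20 ± 0.04 with PAX5-G183V (0.000677). Vhl, the subunit that recognises hydroxylated HIF-1α for ubiquitination, rose by 0.29 ± 0.07 with PAX5-G183S (limma, adjusted p = 0.00601), by 0.25 ± 0.07 with PAX5-G183V (0.0173) and by 0.33 ± 0.08 in PAX5-G183V against PAX5-Δ2-6 (0.0059). The Vhl call in PAX5-G183V against MIR was lost without MIR replicate 2 (adjusted p = 0.0528). A second Vhl probe set changed by -0.15 with PAX5-G183S and by -0.16 with PAX5-G183V and was not called. The Egln1 call with PAX5-WT was lost when MIR replicate 5 or 7 or PAX5-WT replicate 2 or 4 was left out, with the adjusted p reaching 0.0913. Egln1 was not called with the other constructs, but its unadjusted means there were 8.92 (PAX5-G183S), 8.97 (PAX5-P80R) and 8.95 (PAX5-Δ2-6). They were 8.94 with PAX5-WT and 8.81 in MIR, and all PAX5-P80R arrays lay above all MIR arrays. Arnt, the constant partner of HIF-1α, and Egln3, an inducible hydroxylase that was dim here with group means of 3.18 to 3.38, were called in no comparison. Over the 5 oxygen sensing genes, 2 were called with PAX5-WT, 2 with PAX5-G183S, 3 with PAX5-G183V and 1 with PAX5-P80R, each time higher than MIR. Over all genes 3.59%, 3.69%, 5.63% and 2.25% were called higher in these comparisons. With the transduction runs as a term the PAX5-G183V changes of Egln1 (0.20, limma adjusted p = 0.518) and Vhl (0.33, 0.6) were not called.

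Regulators of glycolytic flux were led by Pfkfb3, which makes fructose 2,6-bisphosphate and so drives phosphofructokinase. Pfkfb3 signals ran from 6.61 to 7.02 (median 6.86) in PAX5-WT arrays, from 6.65 to 7.23 (6.85) in PAX5-G183S arrays and from 6.49 to 7.11 (6.86) in PAX5-G183V arrays, against 6.06 to 6.58 (6.32) in MIR arrays. PAX5-P80R arrays held 6.39 to 6.70 (median 6.53) and PAX5-Δ2-6 arrays 6.14 to 6.81 (6.27). All PAX5-WT and PAX5-G183S arrays were above all MIR arrays, 1 PAX5-G183V array overlapped MIR, and the last 2 groups overlapped it widely. Pfkfb3 rose by 0.52 ± 0.09 with PAX5-WT (limma, adjusted p = 0.000115), by 0.55 ± 0.09 with PAX5-G183S (7.14e-05) and by 0.51 ± 0.09 with PAX5-G183V (0.000163). It was also higher in PAX5-G183V than in PAX5-Δ2-6, by 0.49 ± 0.10 (limma, adjusted p = 0.00152). With the transduction runs as a term the Pfkfb3 change of PAX5-G183V against MIR was 0.24 and no longer called (limma, adjusted p = 0.846). The Pfkfb3 change was 0.24 ± 0.10 with PAX5-P80R (limma, adjusted p = 0.22) and 0.02 ± 0.10 with PAX5-Δ2-6 (0.978). A second Pfkfb3 probe set, with a mean of 4.02, changed by -0.05, -0.04 and 0.02 with the first 3 constructs and was not called. Pfkfb4, a related enzyme with group means of 4.58 to 4.72, was called in no comparison of constructs.

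Pdk1 and Pdk3 encode kinases that switch off pyruvate dehydrogenase and so keep pyruvate from mitochondrial oxidation. Pdk1 rose by 0.30 ± 0.09 with PAX5-G183S (limma, adjusted p = 0.0402), a call kept in 4 of 14 fits that each left out 1 array of either group. The Pdk1 change was 0.26 ± 0.09 with PAX5-WT (limma, adjusted p = 0.0989) and 0.20 ± 0.09 with PAX5-G183V (0.188). Its other 2 probe sets were called in all 3 comparisons in a fit of all probe sets, with changes of 0.38 and 0.36 with PAX5-WT, 0.41 and 0.41 with PAX5-G183S and 0.29 and 0.31 with PAX5-G183V. With PAX5-P80R and PAX5-Δ2-6 the chosen Pdk1 probe set changed by -0.05 and -0.01 and was not called.

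Pdk3 fell with 2 mutants. Its signal ran from 7.08 to 7.39 (median 7.30) in PAX5-G183V arrays and from 6.61 to 7.32 (7.19) in PAX5-P80R arrays, against 7.28 to 8.24 (7.64) in MIR arrays. Both ranges overlapped MIR at its lowest array, and the other 6 MIR arrays were higher. Pdk3 changed by -0.50 ± 0.14 with PAX5-G183V (limma, adjusted p = 0.0182) and by -0.67 ± 0.16 with PAX5-P80R (0.00727). The PAX5-Δ2-6 change was -0.40 ± 0.16 (limma, adjusted p = 0.545), and PAX5-WT and PAX5-G183S changed by -0.09 and -0.02. The level of Pdk3 moved with isolation batch in the groups of the other transduction runs, at 8.03 in batch 2 and 7.49 in batch 1 of MIR and at 8.03 and 7.32 in PAX5-WT, and in PAX5-G183V it was 7.28 and 7.22. PAX5-G183S replicate 4, the array that shares a transduction run with batch 2 of PAX5-G183V, PAX5-P80R and PAX5-Δ2-6, had 6.98, against 7.97, 8.31 and 8.13 in the other 3 PAX5-G183S arrays of batch 2. With the 4 transduction runs as a term in place of the isolation batches the Pdk3 changes turned to 0.36 for PAX5-G183V and 0.21 for PAX5-P80R and were not called, so for Pdk3 construct and transduction run cannot be told apart. Without MIR replicate 5 the PAX5-G183V call was also lost (adjusted p = 0.0679).

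The lactate transporters were not called. Slc16a1 (MCT1), which carries lactate across the plasma membrane, had group means of 11.54 to 11.66 with changes against MIR between -0.04 and 0.07, none called by limma. Slc16a3 (MCT4), the exporter typical of glycolytic cells, was dim, below the median of all genes, and was not called.

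The 13 glycolytic enzymes showed small changes. With PAX5-WT none of the 13 was called by limma, 2 had an unadjusted p under 0.05, and their changes ran from -0.20 to 0.09. Gapdh, which oxidises glyceraldehyde 3-phosphate, had group means between 12.85 and 12.92 and changes against MIR between -0.03 and 0.06 (limma, adjusted p of 0.837 to 0.958). Ldha, which makes lactate from pyruvate, gave 12.61 to 12.69 (median 12.65) in PAX5-G183V arrays, against 12.51 to 12.60 (12.55) in MIR arrays, without overlap. The Ldha rise with PAX5-G183V was 0.10 ± 0.03, a 1.07-fold change (limma, adjusted p = 0.0312), and the call was kept in 8 of 14 fits that left out 1 array and lost with the transduction runs as a term (0.17, adjusted p = 0.417). The Ldha change was 0.09 ± 0.03 with PAX5-WT (adjusted p = 0.0827) and 0.09 ± 0.03 with PAX5-G183S (0.0859), and it was 0.01 ± 0.04 with PAX5-Δ2-6 (0.981).

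Hk1, a hexokinase that traps glucose in the cell, fell with PAX5-G183S and PAX5-G183V. It ranged from 8.11 to 8.42 (median 8.28) in PAX5-G183S arrays and from 7.88 to 8.52 (8.29) in PAX5-G183V arrays, against 8.32 to 8.65 (8.55) in MIR arrays, with overlap in both comparisons. The Hk1 change was -0.21 ± 0.06 with PAX5-G183S (limma, adjusted p = 0.0353; kept in 6 of 14 fits that left out 1 array) and -0.27 ± 0.06 with PAX5-G183V (0.00431; kept in 14 of 14). With the transduction runs as a term the PAX5-G183V change of Hk1 was -0.32 and not called (limma, adjusted p = 0.403). Within isolation batches it was -0.39 ± 0.08 in batch 2 and -0.14 ± 0.08 in batch 1 (limma, adjusted p of the difference = 0.362). The batch 2 and batch 1 changes were -0.27 and -0.07 with PAX5-P80R and -0.23 and -0.01 with PAX5-Δ2-6. They were -0.19 and -0.28 with PAX5-G183S and -0.19 and -0.20 with PAX5-WT. The Hk1 change was -0.20 ± 0.06 with PAX5-WT (limma, adjusted p = 0.0592). Pfkm, the muscle form of phosphofructokinase, changed by -0.23 ± 0.07 with PAX5-P80R (limma, adjusted p = 0.0496), a call kept in 4 of 13 fits that left out 1 array and lost with the transduction runs as a term (-0.09, adjusted p = 0.98). The other enzymes measured, Pfkl, Pfkp, Aldoa, Aldoc, Tpi1, Pgk1, Eno2, Pkm and Ldhb, were called in no comparison of constructs. Pgk1, for instance, kept group means of 12.63 to 12.70.

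Some known hypoxia targets varied widely between arrays of a group, and their changes did not pass the test. Bnip3, a mitophagy receptor, Ankrd37, an ankyrin repeat protein induced by HIF-1, and Ddit4 (REDD1), an inhibitor of mTORC1, had residual SDs of 0.39, 0.41 and 0.47 on the log2 scale, beside a median of 0.15 over all genes, and at least 99.8% of genes had a smaller one. Ankrd37 and Ddit4 are described because of this spread, so they were chosen after their values were seen. Bnip3 ran from 7.09 to 8.51 (median 7.61) in PAX5-WT arrays and from 7.00 to 8.64 (7.89) in PAX5-G183S arrays, against 6.95 to 7.45 (median 7.25) in MIR arrays. PAX5-WT replicates 2 and 4 were the highest of their group for Bnip3 (8.51 and 8.19), Ankrd37 (9.07 and 8.81) and Ddit4 (8.62 and 8.70). PAX5-G183S replicate 7 was the highest of its group for the 3 genes, at 8.64, 9.16 and 9.44, and PAX5-G183S replicate 4 the lowest, at 7.00, 7.39 and 6.98. High and low arrays were therefore largely the same ones for the 3 genes in these 2 groups. PAX5-G183S replicate 4 shares transduction run 45 to 57 with batch 2 of PAX5-G183V, PAX5-P80R and PAX5-Δ2-6. In batch 2 of those groups Ankrd37 was at 7.36 to 7.67, 7.22 to 7.38 and 7.26 to 7.43. MIR arrays of batch 2 had 7.71 to 8.33. Bnip3 was at 6.79 to 7.29, 6.48 to 7.04 and 7.01 to 7.28 there, against 7.14 to 7.45 in MIR. The 3′ minus 5′ signal of the Gapdh control probe sets, a measure of RNA quality, was the highest of its group in PAX5-WT replicate 4 (0.207) and in PAX5-G183S replicate 7 (0.121). It was 0.018 in PAX5-WT replicate 2 and -0.001 in PAX5-G183S replicate 4. Group means of this Gapdh measure ran from -0.030 to 0.027. For the beta-actin control probe sets the same difference was highest in PAX5-WT replicate 6 (1.051) and PAX5-G183S replicate 7 (0.917) within their groups. It was 0.97 in PAX5-WT replicate 4, 0.836 in PAX5-WT replicate 2 and 0.844 in PAX5-G183S replicate 4. The parts of RNA quality and of transduction run in the spread of these genes were not tested.

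Bnip3 changed by 0.41 ± 0.20 with PAX5-WT (limma, adjusted p = 0.279), by 0.61 ± 0.20 with PAX5-G183S (0.0554), by 0.18 ± 0.20 with PAX5-G183V (0.654), by -0.49 ± 0.22 with PAX5-P80R (0.249) and by -0.24 ± 0.22 with PAX5-Δ2-6 (0.833). Ankrd37 changed by 0.53 ± 0.20 with PAX5-WT (limma, adjusted p = 0.132) and by 0.62 ± 0.20 with PAX5-G183S (0.0633), but by -0.58 ± 0.23 with PAX5-P80R (0.159) and by -0.59 ± 0.23 with PAX5-Δ2-6 (0.537). Ankrd37 was at 7.22 to 7.50 in PAX5-P80R arrays and at 7.26 to 7.48 in PAX5-Δ2-6 arrays, against 7.49 to 8.33 in MIR arrays. The PAX5-Δ2-6 arrays were all below the MIR arrays and the PAX5-P80R arrays nearly so, with changes that did not pass the test. Arrays of PAX5-Δ2-6 and MIR did not overlap for 0.234% of all genes. Both comparisons also cross transduction runs. With PAX5-G183V, Ankrd37 changed by -0.03 ± 0.20 (limma, adjusted p = 0.96). That change was -0.59 in batch 2 and 0.58 in batch 1 (limma, adjusted p of the difference = 0.145). The batch 2 and batch 1 changes were -0.88 and -0.41 with PAX5-P80R and -0.88 and -0.43 with PAX5-Δ2-6. The part of transduction run was not tested.

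**Figure D3:**
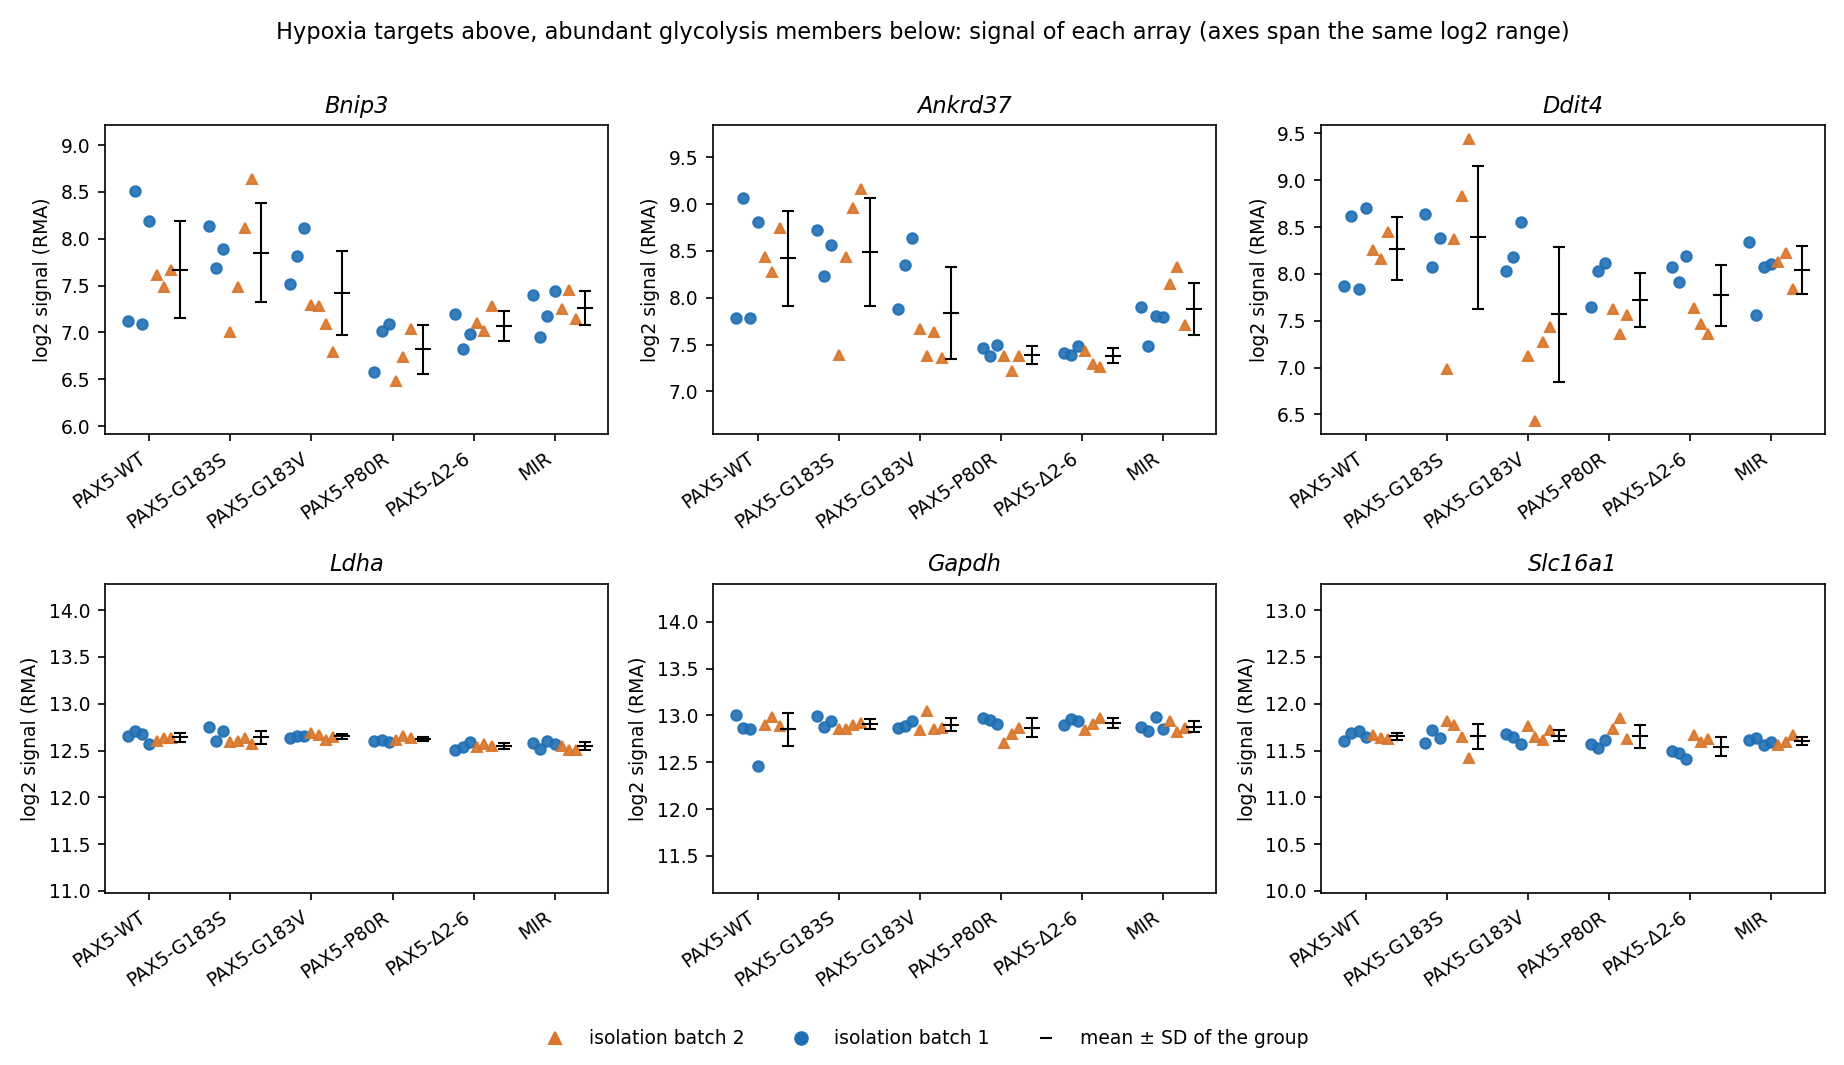
Log2 signal of Bnip3, Ankrd37 and Ddit4 (top) and of Ldha, Gapdh and Slc16a1 (bottom) on each array by construct, all axes spanning the same log2 range, with symbols for isolation batch and the mean ± SD of each group. Bnip3, Ankrd37 and Ddit4 spread widely within PAX5-WT, PAX5-G183S and PAX5-G183V (7.09 to 8.51 for Bnip3 in PAX5-WT), whereas Ldha stays between 12.51 and 12.75 on all 40 arrays.

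Of the remaining hypoxia targets Bnip3l, the mitophagy receptor NIX, rose by 0.19 ± 0.06 with PAX5-G183S (limma, adjusted p = 0.0399), a call kept in 6 of 14 fits that left out 1 array. Vegfa, the vascular growth factor, had group means of 7.60 to 7.77 and changes against MIR of -0.05 to 0.11, none called. A second Vegfa probe set rose by 0.47 ± 0.10 with PAX5-G183V (limma over all probe sets, adjusted p = 0.00147), while the chosen one changed by 0.11 ± 0.07. Kdm3a, a histone demethylase, Higd1a, a mitochondrial protein that aids survival in low oxygen, and Ndrg1, Adm and P4ha2, which were dim, were called in no comparison.

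Within isolation batches the changes of Mgarp and Hif1a against MIR kept their direction with the first 4 constructs and not with PAX5-Δ2-6. Mgarp changed by 1.78 ± 0.13 in batch 2 and 1.97 ± 0.11 in batch 1 with PAX5-WT, by 1.46 ± 0.12 and 1.72 ± 0.12 with PAX5-G183S, by 1.39 ± 0.12 and 1.51 ± 0.12 with PAX5-G183V and by 0.64 ± 0.13 and 0.48 ± 0.12 with PAX5-P80R. Hif1a changed by 0.54 ± 0.06 in batch 2 and 0.65 ± 0.05 in batch 1 with PAX5-WT and by 0.46 ± 0.06 and 0.45 ± 0.06 with PAX5-P80R. Pfkfb3 changed by 0.68 ± 0.13 in batch 2 and 0.42 ± 0.13 in batch 1 with PAX5-G183S and by 0.67 ± 0.13 and 0.36 ± 0.13 with PAX5-G183V, and limma called neither batch 1 change (adjusted p of 0.0627 and 0.189). With PAX5-Δ2-6, Mgarp changed by -0.27 ± 0.13 in batch 2 and 0.14 ± 0.12 in batch 1 (limma, adjusted p of the difference = 0.403), and Hif1a by -0.18 ± 0.06 and 0.01 ± 0.06 (0.425). In PAX5-P80R against PAX5-Δ2-6 the Mgarp change was 0.91 ± 0.13 in batch 2 (limma, adjusted p = 9.91e-06) and 0.34 ± 0.13 in batch 1 (0.342), a difference with adjusted p = 0.235. No member's change differed between batches by limma in any of the 9 comparisons, and between 1 and 5 members a comparison had an unadjusted p under 0.05 for the difference. Over all genes the share that differed was also small, from 0% to 1.04% a comparison, so the absence of calls is not particular to the members. Ddit4 was the member with the widest gap, at -1.07 ± 0.30 in batch 2 and 0.29 ± 0.30 in batch 1 for PAX5-G183V against MIR (limma, adjusted p of the difference = 0.113). The Pdk3 change was -1.04 ± 0.20 and -0.39 ± 0.19 for PAX5-P80R against MIR (adjusted p of the difference = 0.338).

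**Figure D4:**
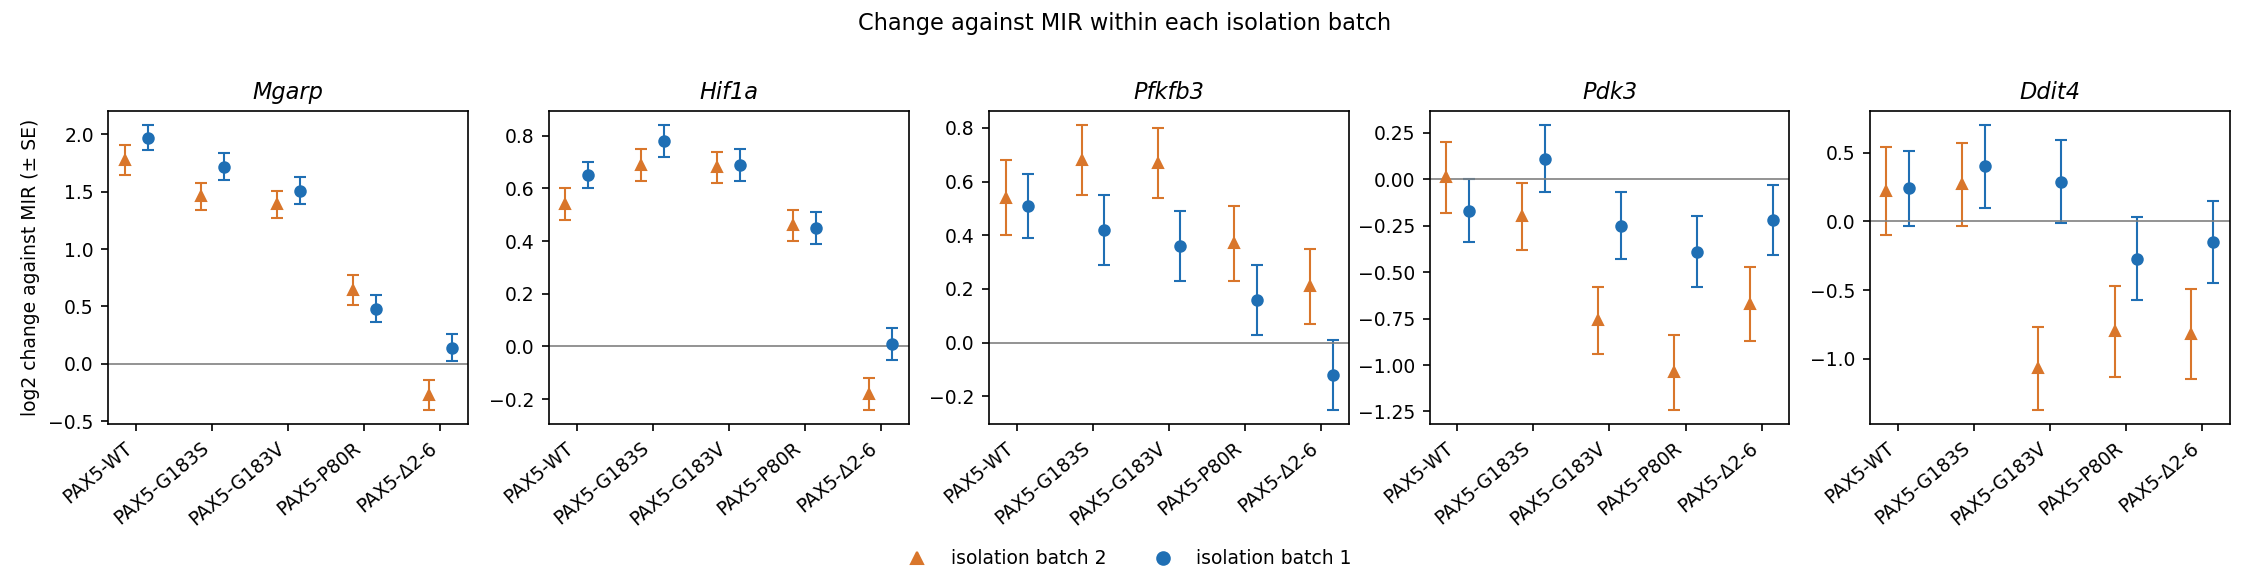
Log2 change against MIR (± SE) of Mgarp, Hif1a, Pfkfb3, Pdk3 and Ddit4 within isolation batch 2 (triangles) and batch 1 (circles) for the 5 constructs, with 0 as the MIR level. Mgarp and Hif1a change in the same direction in both batches with the first 4 constructs, whereas the Ddit4 change with PAX5-G183V is -1.07 in batch 2 and 0.29 in batch 1.

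Between isolation batch 2 and batch 1, over all constructs, 4 members were higher and 5 lower (25.7% of members), near the 21.2% of all genes called, 12.5% higher and 8.7% lower. Transduction runs 1 to 9 and 34 to 44 lay in batch 1, and runs 45 to 57 and 58 to 66 in batch 2. A batch difference is thus also one between transduction runs, and the 2 cannot be told apart. Aldoc, the brain form of aldolase, changed most, by -0.46 ± 0.07 (limma, adjusted p = 2.33e-06), followed by Pdk1 with 0.28 ± 0.05 (0.000145), Pdk3 with 0.28 ± 0.08 (0.0129), Vhl with 0.25 ± 0.04 (1.44e-05), Hk1 with -0.22 ± 0.04 (3.32e-05) and Bnip3l with -0.20 ± 0.03 (2.46e-05). Hif1a changed by -0.10 ± 0.03 (limma, adjusted p = 0.00364), well under its changes with 4 of the constructs. The 6 members with the largest batch changes included Hk1, Pdk1, Pdk3, Vhl and Bnip3l, which were also called between constructs.

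A second list of 46 genes of glucose and oxygen metabolism outside the module, 42 of them measured, gave 2 genes higher and 3 lower with PAX5-WT, 5 and 4 with PAX5-G183S, 3 and 3 with PAX5-G183V, 1 and 3 with PAX5-P80R and 0 with PAX5-Δ2-6. Over all genes 6.43%, 6.12%, 9.28%, 4.72% and 0% were called in either direction in these comparisons. Between isolation batch 2 and batch 1, where 21.2% of all genes were called, 6 of the 42 were higher and 11 lower, the lower ones including Ccng2 (-0.34 ± 0.08), Gbe1 (-0.26 ± 0.05), Pgm1 (-0.20 ± 0.03) and Ero1a (-0.13 ± 0.03). With PAX5-WT, Ccng2, an unconventional cyclin, rose by 0.63 ± 0.14 (limma, adjusted p = 0.00261), while Gbe1, the glycogen branching enzyme, changed by -0.46 ± 0.09 (0.000503), Ero1a, an oxidase of the endoplasmic reticulum, by -0.32 ± 0.05 (4.09e-05), Pgm2, a phosphoglucomutase, by 0.18 ± 0.05 (0.0324) and Mpc1, a subunit of the mitochondrial pyruvate carrier, by -0.16 ± 0.03 (0.00154). Gbe1 was also lower with PAX5-G183S (-0.44 ± 0.09), PAX5-G183V (-0.34 ± 0.09) and PAX5-P80R (-0.38 ± 0.10). Ero1a, itself known as a HIF target, was lower with PAX5-G183S (-0.18 ± 0.05, limma adjusted p = 0.0258) and PAX5-G183V (-0.20 ± 0.05, 0.00963), and its change with PAX5-P80R was -0.04 ± 0.06 (0.839). With PAX5-G183S, Ccng2 rose by 0.76 ± 0.14, Narf by 0.43 ± 0.10 and Pdk2, a further pyruvate dehydrogenase kinase, by 0.42 ± 0.11 (limma, adjusted p of 0.000318, 0.00464 and 0.0139). With PAX5-G183V, Narf rose by 0.35 ± 0.10 and Egln2, another HIF prolyl hydroxylase, by 0.19 ± 0.05 (limma, adjusted p of 0.0201 and 0.0162). Hk2, a hexokinase like Hk1, rose by 0.14 ± 0.04 with PAX5-G183V (limma, adjusted p = 0.0236), whereas Hk1 fell. With PAX5-P80R, the phosphoglucomutase Pgm1 changed by -0.27 ± 0.06, Fam162a by -0.21 ± 0.05 and Mxi1, a MYC antagonist, by 0.15 ± 0.05 (limma, adjusted p of 0.00378, 0.00299 and 0.0419). PAX5-G183V arrays exceeded PAX5-Δ2-6 arrays in Ccng2 by 0.79 ± 0.16 (limma, adjusted p = 0.000971), and PAX5-P80R arrays did so by 0.54 ± 0.15 (0.0378). Ero1a and Mpc1 were lower in PAX5-G183V than in PAX5-Δ2-6 (-0.20 ± 0.06 and -0.15 ± 0.04). Pgm1 and Fam162a were lower in PAX5-P80R than in PAX5-Δ2-6 (-0.22 ± 0.06 and -0.16 ± 0.04), and Fam162a also than in PAX5-G183V (-0.19 ± 0.05). Plasma cell markers moved in the same comparisons: 3 of 8 measured markers fell with PAX5-WT (Ell2, Ly6c1 and Xbp1), 3 with PAX5-G183S, 6 with PAX5-G183V, 1 with PAX5-P80R and 0 with PAX5-Δ2-6, with median changes of -0.188, -0.175, -0.308, -0.20 and -0.02. Over all genes 2.84%, 2.43%, 3.64%, 2.47% and 0% were called lower. In isolation batch 2 against batch 1, 5 of the 8 plasma cell markers were called higher and 0 lower, with a median change of 0.169, beside 12.5% of all genes called higher. Of 8 measured mature B cell markers, limma called Ms4a1 (CD20) higher with PAX5-WT, PAX5-G183S and PAX5-G183V, with group means of 9.08, 8.77 and 8.76 against 3.79 in MIR, and Pax5 with PAX5-P80R. The mean of Ms4a1 was 3.92 in PAX5-P80R and 3.72 in PAX5-Δ2-6. The part of both marker lists in the changes of the module was not tested.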

How the data were processed

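RNA of transduced J558LuM cells was measured on 40 3′ expression arrays. Per the submitters' processing notes the deposited log2 signals come from RMA. The version of RMA was not given in the sources used here, and raw signals were not used. Precision is set by the number of arrays, and SEs had medians of 0.077 to 0.086. The annotation gives 28898 of the 45141 probe sets a single gene, 15692 no gene and 551 more than 1. The brightest probe set stood for each of 17097 genes. The highest correlation of 2 arrays was 0.9969 and 0 columns were identical.

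R 4.3.3 with limma 3.58.1 fitted all arrays with terms for the 6 groups, 2 plates and 2 isolation batches, with Benjamini-Hochberg correction across genes. Groups and batches came from the labels. Alternatives left out or replaced batch terms, arrays, probe set rule, normalization and dim genes, or used the replicate number as a block. The fit was tested on simulated data. The members and lists were chosen with earlier results of these data known. Named were up to 6 called members per comparison with the largest changes, and Hif1a, Ldha, Pdk1, Egln3, Bnip3, Vegfa, Slc16a1 and Gapdh. Members given outside that rule (Egln1 with PAX5-G183V, Bnip3l with PAX5-G183S, Ankrd37, Ddit4, Pgk1, and changes below the threshold) were added after their values were seen. So was Hk2 of the second list. Gene roles are background knowledge. Promoter windows were matched by symbol.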

Additional observations from a re-analysis of the deposited data

Results flagged for a closer look

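Of 102 screens of a named member within a construct group, 5 had an array that stood apart from the rest of its group by Dixon's criterion, and chance flags about 1 in 20 such groups. Gapdh was at 12.46 in PAX5-WT replicate 4, where the next lowest array had 12.85. Pdk3 was at 6.61 in PAX5-P80R replicate 4, with the next lowest at 7.11, and without that array the Pdk3 change against MIR was -0.54 (limma, adjusted p = 0.0329). Pfkfb3 was at 6.81 in PAX5-Δ2-6 replicate 6, with the next highest at 6.30. Egln3 was at 3.44 in MIR replicate 1, with the next highest at 3.21, and Vegfa was at 7.95 in PAX5-G183V replicate 4, with the next highest at 7.76.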

How the results depend on the processing

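Mgarp and Hif1a kept their direction and their call against MIR with the first 4 constructs under every alternative run. In PAX5-P80R against PAX5-Δ2-6 the Mgarp change was 0.34 and not called in isolation batch 1 alone. Called members, 4 with PAX5-WT, numbered 2 in isolation batch 2 alone and 7 with the 4 transduction runs as a term. The 7 with PAX5-G183S became 4 without batch terms, 4 in isolation batch 1 alone, 3 in batch 2 alone, 4 on plate 2 alone and 11 without dim genes. The fit without dim genes also leaves out the 8 members with means under the median of all genes. The 8 with PAX5-G183V became 5 without batch terms, 2 in isolation batch 1 alone, 3 on plate 2 alone and 2 with the transduction runs. The 4 with PAX5-P80R became 2 in isolation batch 1 alone, 2 on plate 2 alone, 2 with the transduction runs and 2 with both groups fitted alone. The 2 of PAX5-P80R against PAX5-Δ2-6 became 1 in isolation batch 1 alone, the 4 of PAX5-G183V against PAX5-Δ2-6 became 2 in batch 2 alone, and the 2 of PAX5-P80R against PAX5-G183V became 1 in batch 1 alone, 1 in batch 2 alone, 1 on plate 2 alone and 1 with both groups fitted alone. The 9 of isolation batch 2 against 1 became 5 over PAX5-WT, PAX5-G183S and MIR alone. Fits on 1 batch or plate use fewer arrays, and for the other alternatives the cause was not tested. Counts over all genes varied with the fit too, so a changed member count does not speak of the members alone. Apart from fits without 1 array, calls over all genes ran from 225 to 1335 with PAX5-WT (1099 as reported), 153 to 1305 with PAX5-G183S (1046), 123 to 1821 with PAX5-G183V (1586), 70 to 1123 with PAX5-P80R (807), 0 to 56 with PAX5-Δ2-6 (0), 5 to 16 for PAX5-G183S against PAX5-WT (13), 92 to 748 for PAX5-P80R against PAX5-Δ2-6 (565), 200 to 1086 for PAX5-G183V against PAX5-Δ2-6 (852), 109 to 911 for PAX5-P80R against PAX5-G183V (728) and 4 to 3907 between isolation batches (3618).

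Leaving out 1 array at a time gave 3 to 5 called members with PAX5-WT, 4 to 7 with PAX5-G183S, 6 to 9 with PAX5-G183V, 3 to 4 with PAX5-P80R, 0 with PAX5-Δ2-6 and 0 for PAX5-G183S against PAX5-WT. It gave 2 for PAX5-P80R against PAX5-Δ2-6, 4 for PAX5-G183V against PAX5-Δ2-6, 2 to 3 for PAX5-P80R against PAX5-G183V and 9 to 11 between isolation batches. Counts over all genes in these fits are not given here, so these ranges do not speak of the members alone. The Pdk3 change turned to 0.36 with PAX5-G183V and to 0.21 with PAX5-P80R under the transduction runs, where the contrast with MIR rests on PAX5-G183S replicate 4 alone.

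With the replicate number as a block the counts were 4, 6, 8, 2 and 0 for the 5 constructs against MIR, 0 for PAX5-G183S against PAX5-WT, 2 for PAX5-P80R against PAX5-Δ2-6, 3 for PAX5-G183V against PAX5-Δ2-6, 1 for PAX5-P80R against PAX5-G183V and 0 between isolation batches, where Vhl turned to -0.02 and Pfkfb4 to -0.29. Only replicate number 4 holds arrays of both isolation batches, so the batch term of this fit rests on those arrays. The lost batch calls and turned signs therefore cannot be read as a property of the members. Deviations of 96 same-numbered pairs of arrays correlated at -0.165 to 0.301 (median 0.107), over 0.1 in 50 of them. Of the 96 pairs 88 also share an isolation batch, and pairs with different numbers were not compared. Whether the numbers pair arrays is therefore not known.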
